A study of Homo sapiens with 6 samples.

Results

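Claudins and their tight junction partners were followed as a set of 9 genes: CLDN1, CLDN2, CLDN3, CLDN4, CLDN6, CLDN7, CLDN12, OCLN and TJP1. They were found in the deposited array table by gene symbol and Entrez number, and they were 9 of 18713 genes measured. Of 49293 probe sets that are not controls, 20 named a member and 18 were assigned to 1 member alone. A member was called measurable when the mean log2 signal of its brightest probe set over all 6 arrays was at least 5, so which members lie above that level is a description. The genes were chosen by name, with the knockdown and control signals of these arrays already known, the fall of CLDN7 among them, so the adjusted p-values below describe the fit over all genes and are not independent evidence for these genes.

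The study asked which cellular pathways differ after knockdown of the transcription factor SOX9. It compared cells labelled HepG2, an established human liver cancer line, that had received a viral hairpin construct targeting SOX9 with such cells infected with an empty virus, 3 arrays each. All were grown in DMEM with serum, both groups had been through viral infection, and the protocol speaks of a knockdown clone and a matching negative control clone. The description field of the knockdown samples names the empty virus; their other labels name the hairpin and were followed. With 1 clone a side, a difference between clones and the effect of the hairpin cannot be told apart. Nothing in the labels says whether the 3 samples of a group were grown apart, so the p-values speak to the spread among these samples alone, and that spread may be technical.

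SOX9 itself read 6.91, 7.08 and 6.90 on the knockdown arrays, against 8.15, 7.99 and 7.67 on the control arrays (log2 signal), a difference of -0.97 (SE 0.13, limma adjusted p = 0.00114), with the knockdown signal at 51.0% of control. Its groups did not overlap in this probe set or in the next (-0.83). In the dimmest of its 3 sets, knockdown 3 read 4.76, above control 3 at 4.67, and the difference of -0.81 did not pass (adjusted p = 0.0716 over all probe sets). Array medians lay between 5.42 and 5.46 in knockdown and between 5.44 and 5.48 in control, and pairs of arrays correlated at 0.9823 to 0.9919 across groups and at 0.9919 to 0.9959 inside them. Control 3 stood nearer to the knockdown arrays in the spike-in and GAPDH readings. Exogenous poly-A control transcripts (the spike-ins) read 7.12, 6.79 and 6.93 in knockdown and 6.36, 6.48 and 6.95 in control. GAPDH, whose control sets compare the 3' end with the 5' end as a reading of RNA integrity, gave differences of 0.42, 0.37 and 0.24 in knockdown and 0.04, 0.03 and 0.26 in control. The same reading of actin ran the other way, at 2.29, 2.34 and 2.19 in knockdown and 2.56, 2.55 and 2.51 in control. Their part in the results below was not tested beyond a fit with the spike-in level as a covariate. That level was higher in every knockdown array than in controls 1 and 2, so the covariate partly tracks the groups. A call lost in that fit therefore cannot tell a technical difference from a difference between the groups. Of 15 hepatocyte marker genes, such as those for albumin and the apolipoproteins, 1 had a mean of at least 5, TTR, and the list mean ran from 3.60 to 3.77 in knockdown and from 3.53 to 3.80 in control. These levels go against the label HepG2. Markers of leukocytes, endothelium and fibroblasts reached a mean of 5 in 2 of 8, 3 of 7 and 2 of 8 genes. Of all 18713 genes, 11792 reached it.

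Tight junctions are belts of strands that seal the space between neighbouring epithelial cells and keep their apical and basolateral membranes apart. The strands are built of claudins, small membrane proteins that pair across the gap between cells; some claudins seal and others form pores for ions. Occludin, the product of OCLN, lies in the same strands, and ZO-1, the product of TJP1, is a scaffold beneath the membrane that links them to actin. In liver, tight junctions separate the bile canaliculus from the blood side of the hepatocyte.

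CLDN7 fell, TJP1 fell by a smaller amount, and no member rose by the test. Of the 9 genes, 2 passed lower and 0 passed higher (limma, adjusted p under 0.05 over all genes), and at an unadjusted p under 0.05 the counts were also 2 and 0. Over all genes, 8.36% were called lower and 8.43% higher, in all 16.8% in either direction, and at an unadjusted p under 0.05 the shares were 13.4% lower and 15.2% higher. By probe set, 3 of the 18 assigned to 1 member passed lower and 0 higher, beside 6.68% and 5.94% of all probe sets, 12.6% in either direction. The median difference of the 9 genes was -0.04 on the log2 scale, against 0.03 over all genes. The groups did not overlap for 2 members that lay lower and 1 that lay higher, CLDN4; over all genes these shares were 15.5% and 16.9%.

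**Figure D1:**
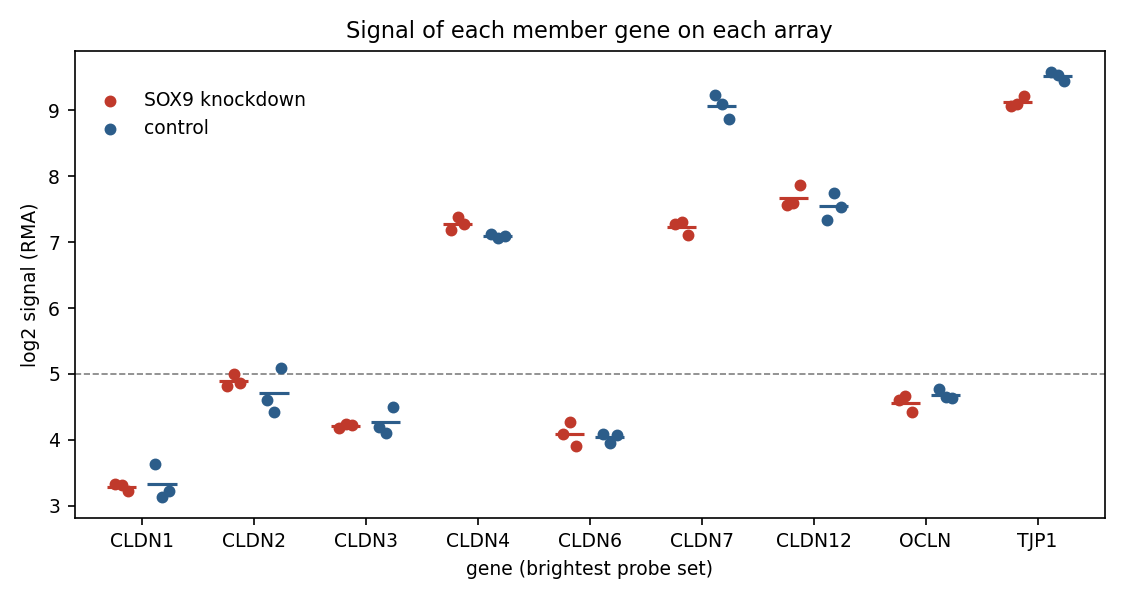
Log2 signal of the brightest probe set of each of the 9 genes on every array, with the 3 SOX9 knockdown arrays left (red) and the 3 control arrays right (blue) and horizontal bars at group means; the dashed line marks 5. The 3 knockdown points of CLDN7 (7.10 to 7.31) lie below its 3 control points (8.86 to 9.23), and 5 genes lie below the dashed line on average.

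The members fell into 4 measurable genes and 5 that were not, beside 11792 measurable genes of all 18713. TJP1 (mean of the 6 arrays 9.32), CLDN7 (8.15), CLDN12 (7.61) and CLDN4 (7.19) lay above the threshold of 5. CLDN2 (4.8), OCLN (4.62), CLDN3 (4.24), CLDN6 (4.06) and CLDN1 (3.31) lay below it. CLDN4 was thus the gene just inside and CLDN2 the gene just outside, and no member had a mean between theirs. Signals of different probe sets depend on their probes as well as on the transcript, so these values are not an order of abundance. By probe set, 8 of the 18 reached 5 and 10 did not; the one just inside was the dimmer set of CLDN12, at 5.70.

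CLDN7 encodes a claudin of the lateral membrane of epithelial cells that binds the adhesion molecule EPCAM. Its single probe set is aligned by the deposited table to chr17:7163221-7166518 on the minus strand, band p13.1; no source used here names the build. It read 7.27, 7.31 and 7.10 on the knockdown arrays, against 9.23, 9.10 and 8.86 on the control arrays. All 3 knockdown values lay more than 1 log2 unit below the lowest control value, which was that of control 3. The means were 7.23 ± 0.11 in knockdown and 9.06 ± 0.19 in control (SD, n = 3 each), a difference of -1.84 (SE 0.12, 95% interval -2.10 to -1.57, limma adjusted p = 4.04e-05). The knockdown signal was 28.0% of the control signal, a 3.57-fold lower one. This was the 17th most negative difference of 18713 genes, and 167 genes, 0.892% of all, passed with a fall of 1 or more on the log2 scale; in either direction 1.38% passed with a difference of that size. The call held in all 15 alternative fits, whose differences ran from -1.94 to -1.67 with adjusted p from 3.35e-06 to 0.00206. Fits that changed the value table or the representative probe set reused the same values of CLDN7, so they could not move its difference. No second probe set of CLDN7 was on the array to set beside it. In bulk RNA, fewer cells with the transcript and less of it per cell cannot be told apart.

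TJP1 was measured by 2 probe sets that are both aligned to band q13.1 of chromosome 15, on the minus strand. The brighter, at chr15:29992355-30114705, read 9.06, 9.10 and 9.22 in knockdown, against 9.58, 9.53 and 9.45 in control. The other, at chr15:29992363-30034896, read 6.32, 6.45 and 6.52 in knockdown, against 7.08, 7.09 and 6.68 in control. In neither set did the groups overlap, and in both control 3 was the lowest control array. The brighter set gave a difference of -0.39 (SE 0.09, 95% interval -0.61 to -0.18, limma adjusted p = 0.0181 over the genes), with the knockdown signal at 76.1% of control. The other differed by -0.52 (SE 0.13), with an adjusted p of 0.0333 over all probe sets, where that of the brighter set was 0.0300. The call of TJP1 was lost without knockdown 1 (-0.36, adjusted p = 0.0924), without knockdown 2 (-0.38, 0.0642) and without control 1 (-0.36, 0.0729). It was also lost with the spike-in level, which partly tracks the groups, as a covariate (-0.32, 0.195). In all, TJP1 passed in 10 of 15 alternatives, and the sign stayed negative in each.

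**Figure D2:**
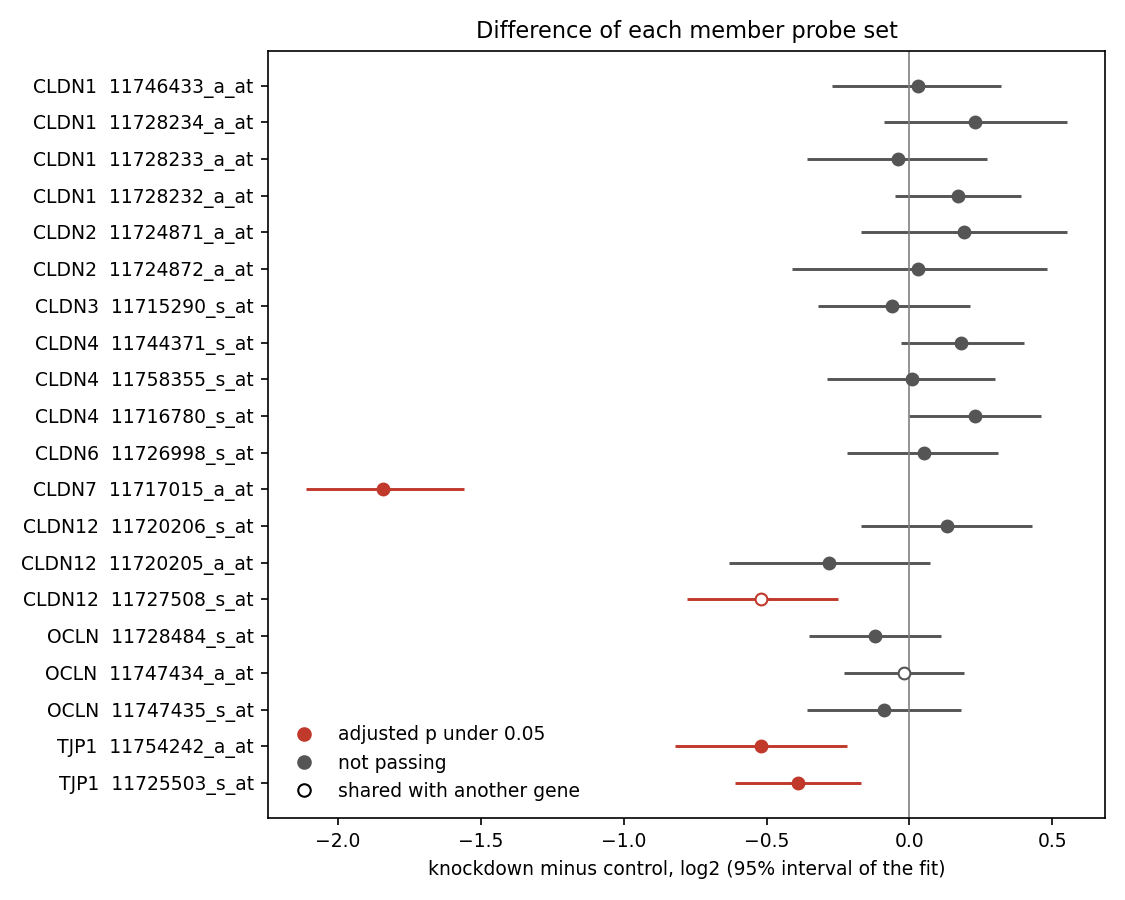
Knockdown minus control difference (log2) of the 20 probe sets that name a member, with the 95% interval of the limma fit; red marks an adjusted p under 0.05 over all probe sets and open circles mark sets shared with another gene. CLDN7 lies at -1.84, the TJP1 sets at -0.39 and -0.52, and the passing CLDN12 set at -0.52 is the one shared with GTPBP10.

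CLDN4, a sealing claudin and a receptor of a Clostridium perfringens enterotoxin, was named by 3 probe sets. The brightest read 7.18, 7.38 and 7.28 in knockdown, against 7.12, 7.06 and 7.09 in control, and the next read 6.96, 7.0 and 7.19 in knockdown, against 6.79, 6.85 and 6.81 in control. All knockdown values lay above all control values in both sets, by little. The differences were 0.18 (SE 0.09, 95% interval -0.02 to 0.39, limma adjusted p = 0.235 over all genes) and 0.23 (SE 0.10, adjusted p = 0.183 over all probe sets), so neither passed, and the interval of the brightest set reaches 0.39. The last set differed by 0.01, but its first alignment in the table is chr11:75110562-75112774. The first alignments of the other sets lie in band q11.23 of chromosome 7, and further alignments were not read. The table gives all 3 a second locus, LOC100996451, which the RefSeq table used here does not hold; they were assigned to CLDN4 on that ground.

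CLDN12, a claudin found in many tissues, gave different values by probe set. The brightest of its own read 7.57, 7.59 and 7.86 in knockdown, against 7.34, 7.75 and 7.53 in control, with overlapping groups and a difference of 0.13 (SE 0.13, 95% interval -0.15 to 0.42, limma adjusted p = 0.583). The dimmer read 5.43, 5.65 and 5.59 in knockdown, against 5.81, 6.16 and 5.53 in control, and differed by -0.28 without passing (adjusted p = 0.315 over all probe sets). Another probe set is listed for both CLDN12 and GTPBP10, a GTPase gene next to it. It read 7.65, 7.55 and 7.68 in knockdown, against 8.08, 8.35 and 8.0 in control, and fell by 0.52 (SE 0.12, limma adjusted p = 0.0204 over all probe sets). Its first alignment in the table is chr7:89975989-90016651, which ends before the span chr7:90032647-90045268 given for the sets of CLDN12 alone. Only the first alignment was read. As a set shared with another gene it was not counted for CLDN12.

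The 5 genes under the threshold gave no difference that passed the test. CLDN2, which forms a pore for cations, read 4.82, 5.00 and 4.86 in knockdown, against 4.60, 4.43 and 5.09 in control; control 3 was the highest of the 6 arrays. Its difference was 0.19 (95% interval -0.16 to 0.54, limma adjusted p = 0.502), and without control 3 it was 0.38 with an adjusted p of 0.0445. The other CLDN2 set averaged 4.44 and differed by 0.03. OCLN read 4.60, 4.66 and 4.43 in knockdown, against 4.77, 4.65 and 4.64 in control, a difference of -0.12 (95% interval -0.34 to 0.10, adjusted p = 0.503). A further OCLN set averaged 2.72, and another is shared with the pseudogene OCLNP1.

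CLDN3, a sealing claudin, read 4.18, 4.24 and 4.22 in knockdown, against 4.20, 4.11 and 4.5 in control. CLDN6, a claudin of embryonic epithelia, read 4.09, 4.27 and 3.91 in knockdown, against 4.09, 3.95 and 4.08 in control. The groups of both genes overlapped, and the differences were -0.06 (95% interval -0.31 to 0.20) and 0.05 (-0.20 to 0.30). CLDN1, a claudin of skin and bile duct epithelium and an entry factor of hepatitis C virus, had 4 probe sets with means from 2.43 to 3.31 and differences from -0.04 to 0.23. Its brightest set read 3.33, 3.31 and 3.22 in knockdown, against 3.64, 3.14 and 3.22 in control.

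Sequence around the starts of transcription was examined for the members. RefSeq (GRCh38.p14) gave 15 windows for the 9 genes, each of 250 bases before and 50 bases from an annotated start of transcription. They were searched on both strands for the E-box CACCTG, which reads CAGGTG on the other strand and is known to be bound by factors of the Snail and ZEB families, and for ACAAT, read as ATTGT on the other strand, a core that SOX factors are known to bind. Neither motif contains the other. Of all 35116 windows in the table, 20.6% held the E-box and 27.4% held ACAAT. Of the 15 windows, 6 held the E-box (5 genes: CLDN3, CLDN6, CLDN7, OCLN and TJP1) and 3 held ACAAT (CLDN2, CLDN12 and the last start of TJP1).

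CLDN7 has 2 annotated starts, and its windows differed. The window of the downstream start, chr17:7262429-7262728 on the minus strand, held 5 E-boxes, whose first bases lie at -174, -135, -20, -9 and 6 from the start. Of the 35116 windows, 33, or 0.0940%, held 5 or more. That share is over windows of any base content, whereas this window is 71.7% GC, and it was the one with the most E-boxes among the 15. The window of the upstream start, chr17:7263164-7263463, held none, and neither held ACAAT. The windows are printed 5' to 3' on the strand of the gene, in lower case with the searched motifs in capitals, because CLDN7 and TJP1 are the members that fell and CLDN4 is a measurable claudin that did not. The window of TJP1 is that of its first start (chr15:29969000-29969299, minus strand) and that of CLDN4 is chr7:73830746-73831045 (plus strand). A match is a description of letters, not evidence of binding.
CLDN7, downstream start: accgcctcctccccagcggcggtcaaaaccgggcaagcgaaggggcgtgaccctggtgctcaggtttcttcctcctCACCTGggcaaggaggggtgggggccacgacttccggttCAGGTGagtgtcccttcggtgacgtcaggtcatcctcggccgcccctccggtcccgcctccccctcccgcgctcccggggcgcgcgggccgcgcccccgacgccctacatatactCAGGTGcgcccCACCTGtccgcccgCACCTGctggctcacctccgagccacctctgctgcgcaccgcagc
CLDN7, upstream start: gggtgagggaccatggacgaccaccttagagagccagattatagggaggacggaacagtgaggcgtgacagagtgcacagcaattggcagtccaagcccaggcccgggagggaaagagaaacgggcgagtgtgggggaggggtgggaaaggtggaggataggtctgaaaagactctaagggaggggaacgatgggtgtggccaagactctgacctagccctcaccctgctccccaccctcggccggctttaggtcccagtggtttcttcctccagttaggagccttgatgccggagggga
TJP1, first start: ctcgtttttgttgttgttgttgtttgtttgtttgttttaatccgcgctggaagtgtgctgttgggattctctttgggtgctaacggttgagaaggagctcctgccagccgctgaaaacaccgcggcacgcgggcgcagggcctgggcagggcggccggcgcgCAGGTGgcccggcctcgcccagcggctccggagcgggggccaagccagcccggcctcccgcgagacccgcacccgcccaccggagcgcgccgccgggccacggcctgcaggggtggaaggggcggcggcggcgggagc
CLDN4: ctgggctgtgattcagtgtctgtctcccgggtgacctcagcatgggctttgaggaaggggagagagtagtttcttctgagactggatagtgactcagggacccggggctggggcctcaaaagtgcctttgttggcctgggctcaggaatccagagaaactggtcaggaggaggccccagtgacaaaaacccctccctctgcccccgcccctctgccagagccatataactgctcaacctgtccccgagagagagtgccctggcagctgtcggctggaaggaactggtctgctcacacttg
The printed TJP1 window holds 1 E-box, at -88, and the other 3 TJP1 windows hold no E-box. The last TJP1 window, not printed, holds 2 ACAAT cores, at -185 and -110. The CLDN4 window holds neither motif. CLDN3, CLDN6 and OCLN also hold the E-box and gave no difference that passed. Whether these motifs go with the differences was not tested.

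Among all claudins on the array, 22 had a probe set of their own, the 7 members and 15 others. A mean of 5 was reached by 7 of the 22: CLDN7, CLDN12, CLDN4, CLDN15 (6.61), CLDN19 (6.17), CLDN9 (5.67) and CLDN16 (5.29). That level was reached by 11792 of all 18713 genes. Further probe sets of CLDN15, CLDN16 and CLDN19 lay below 5, so for those genes the level depends on the set. CLDN7 was the 1 claudin of the 22 that passed, beside 16.8% of all genes in either direction and 8.36% lower. The differences of the other 21 lay between -0.23 (CLDN22) and 0.32 (CLDN25). By limma 0 claudins passed higher, beside 8.43% of all genes. CLDN25 alone had an unadjusted p under 0.05 in that direction, beside 15.2% of all genes. CLDN25 read 4.25, 4.77 and 4.52 in knockdown, against 4.20, 4.21 and 4.16 in control, under 5 in both groups (adjusted p = 0.125). CLDN22 read 5.03, 4.47 and 4.87 in knockdown, against 4.82, 5.24 and 4.99 in control, with overlapping groups.

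**Figure D3:**
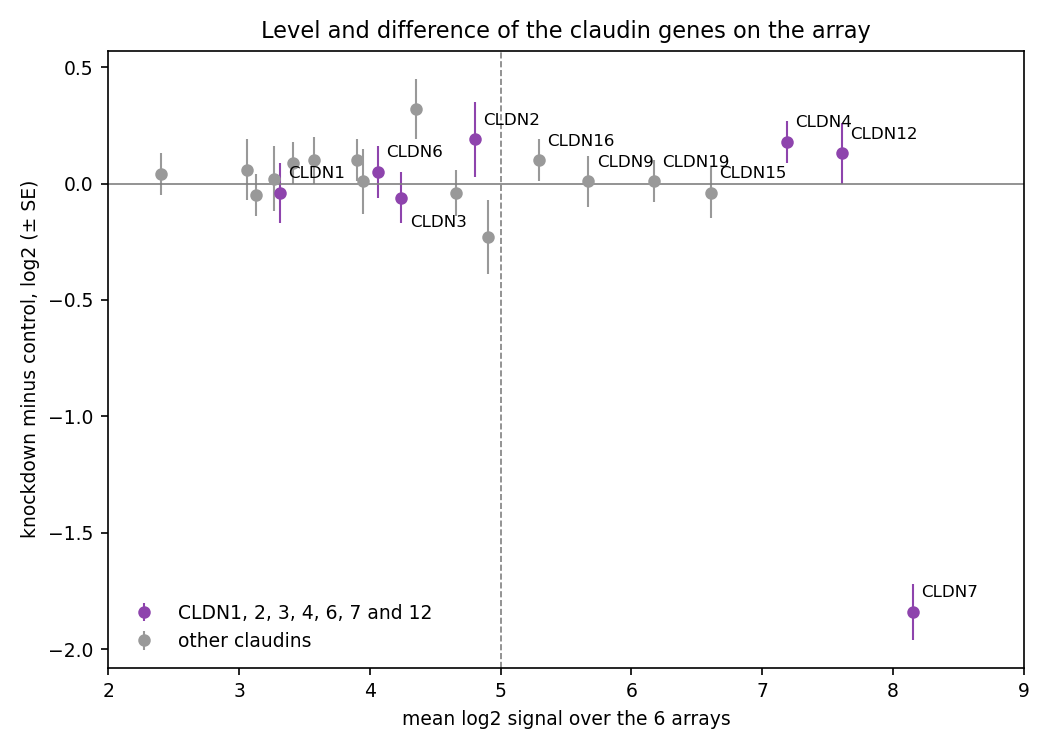
Mean log2 signal over the 6 arrays (x) and knockdown minus control difference with its standard error (y, log2) of the 22 claudin genes, with the 7 members in purple and the others in grey; the dashed line marks 5. CLDN7 lies at -1.84 and the other 21 genes between -0.23 and 0.32.

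Other tight junction genes were taken from lists of membrane proteins and of scaffold and polarity proteins. With the other claudins these held 52 measured genes, of which 3 rose and 1 fell by limma, 7 and 1 at an unadjusted p under 0.05, with a median difference of 0.03. Over all genes 8.43% rose and 8.36% fell, 15.2% and 13.4% unadjusted. A mean of 5 was reached by 27 of the 52 and by 11792 of all 18713 genes. In a fit limited to that level, 4 of the 27 rose and 1 fell, beside 1903 and 1789 of the 11792. Among the 12 other membrane proteins, IGSF5, also called JAM4, an immunoglobulin-type adhesion protein of tight junctions, fell most. It read 5.01, 5.22 and 5.36 in knockdown, against 6.71, 6.71 and 6.42 in control, with no overlap. The difference was -1.42 (SE 0.12, limma adjusted p = 0.000144), which left 37.4% of the control signal, and the call held in all 16 alternative fits. IGSF5 has 1 probe set, so fits that changed the value table or the representative set reused its values. CXADR, the adhesion receptor of coxsackieviruses and adenoviruses, and LSR, a protein of tricellular junctions, rose by 0.45 and 0.38 (adjusted p = 0.0395 each), with groups that did not overlap. The other probe sets of CXADR differed by -0.36, -0.23 and 0.10. CXADR and LSR both lost the call without knockdown 1, knockdown 2, control 1 or control 2 in turn, with adjusted p from 0.103 to 0.153, and with the spike-in covariate (0.443 and 0.379). The remaining 9 did not pass.

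Of the 25 scaffold, adaptor and polarity genes 1 rose, AMOTL2, an angiomotin family protein, and 0 fell by limma, with 4 and 0 at an unadjusted p under 0.05. Over all genes 8.43% rose and 8.36% fell, 15.2% and 13.4% unadjusted. AMOTL2 read 7.96, 7.78 and 7.87 in knockdown, against 7.33, 7.54 and 7.30 in control, a difference of 0.48 (SE 0.10, adjusted p = 0.0105; 0.0584 without knockdown 1 and 0.0968 with the spike-in covariate). Its other probe sets differed by 0.16 and 0.19 without passing, and the mean of the 3 sets differed by 0.28 (adjusted p = 0.0518).

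Of the 8 claudin partners and membrane proteases, SPINT2 fell and 0 rose by limma, with 2 higher and 1 lower at an unadjusted p under 0.05. Over all genes 8.43% rose and 8.36% fell, 15.2% and 13.4% unadjusted. SPINT2, an inhibitor of membrane serine proteases, read 5.62, 5.51 and 5.50 in knockdown, against 6.02, 6.22 and 6.11 in control, a difference of -0.58 (SE 0.10, adjusted p = 0.00330), and its second probe set fell by 0.63. EPCAM, which binds claudin-7, read 7.61, 7.33 and 7.84 in knockdown, against 7.24, 7.59 and 7.25 in control, with overlapping groups (difference 0.23, adjusted p = 0.352). Its 3 probe sets differed by 0.23 to 0.50. TSPAN8, a tetraspanin, differed by 0.30 (adjusted p = 0.0701). EPCAM was named here after its values were seen, for its known binding to claudin-7.

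Of 15 transcription factors known to act on junction genes, 4 fell and 1 rose by limma (5 and 1 at an unadjusted p under 0.05), beside 8.36% and 8.43% of all genes (13.4% and 15.2% unadjusted). SNAI2, the repressor Slug, read 7.97, 7.81 and 7.81 in knockdown, against 9.32, 9.20 and 8.83 in control, a difference of -1.26 (SE 0.13, adjusted p = 0.000357). TWIST1, another factor of epithelial-mesenchymal transition, read 4.62, 4.78 and 5.29 in knockdown, against 5.75, 6.06 and 6.09 in control, a difference of -1.07 (SE 0.17). The groups of both did not overlap, and both calls held in all 16 alternative fits. Each has 1 probe set, so fits that changed the value table or the representative set reused the same values. The epithelial factor ELF3 fell by 0.43 and the repressor ZEB1, named after its values were seen, by 0.38, and HNF4A, a factor of hepatocytes, rose by 0.54. Leaving out any of the 6 arrays but control 3 ended the call of ELF3 (adjusted p from 0.0684 to 0.124), and 4 arrays did so for HNF4A (0.0706 to 0.109). With the spike-in covariate ELF3 differed by -0.24 (adjusted p = 0.384), HNF4A by 0.36 (0.317) and ZEB1 by -0.35 (0.192), and none of these passed. One of the other ELF3 probe sets differed by 0.25, and other sets of HNF4A by 0.00 to 0.45. ZEB1 passed in 7 of its 15 alternatives, and its probe sets ran from -0.47 to 0.02.

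**Figure D4:**
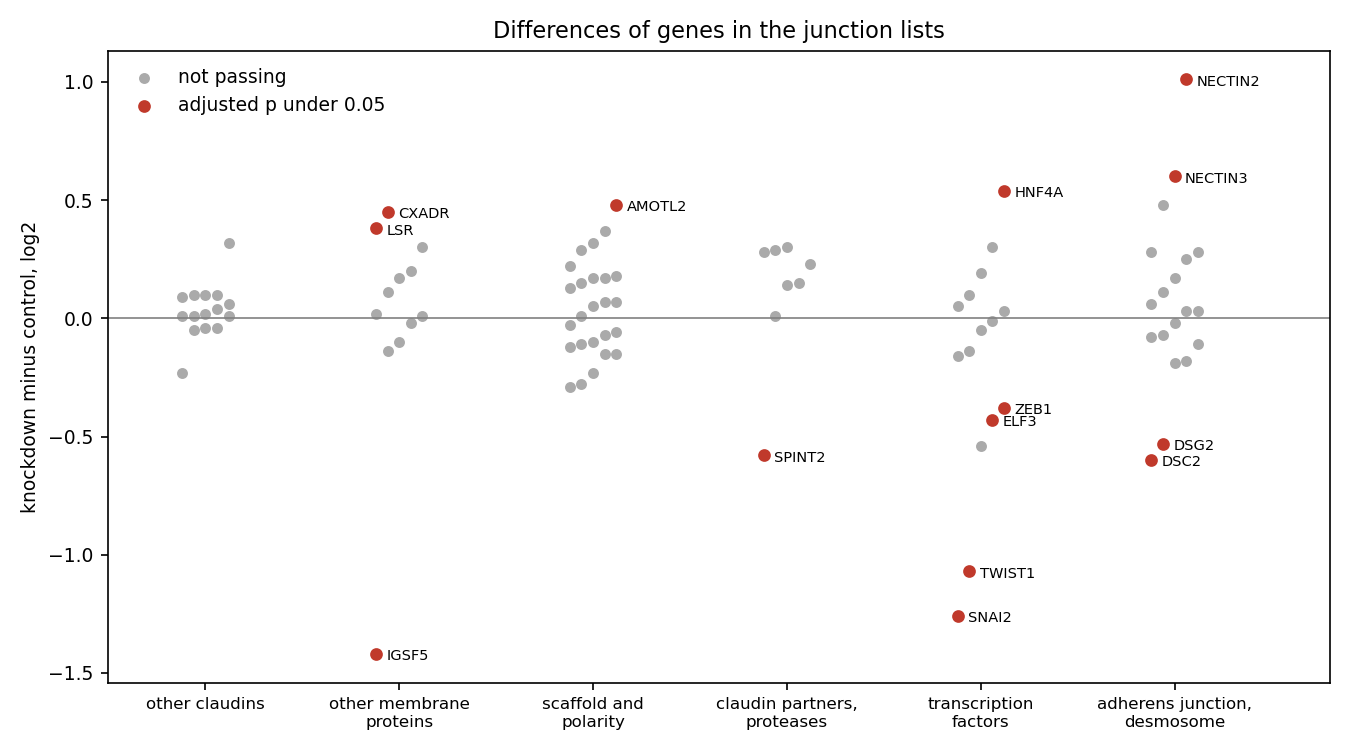
Knockdown minus control difference (log2) of each measured gene in 6 lists, with genes of adjusted p under 0.05 in red and named and the others in grey; a gene can differ between its probe sets. IGSF5 at -1.42, SNAI2 at -1.26 and TWIST1 at -1.07 lie lowest, and NECTIN2 at 1.01 lies highest.

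The genes whose 6 array values ran most like those of CLDN7 were found among 11646 other genes with a mean of at least 5, leaving out symbols that start with LOC or LINC or hold orf. Likeness was the root mean square distance between profiles, each centred on its own mean; the median distance was 0.95 log2 units. The nearest were TSC22D3, a glucocorticoid-induced gene (0.111), PCK2, the mitochondrial phosphoenolpyruvate carboxykinase (0.122), SERPINI1, the gene of neuroserpin (0.124), ADSS1, an adenylosuccinate synthase (0.126), and DDIT3, a stress transcription factor (0.150). TSC22D3, the nearest, read 8.81, 8.78 and 8.88 in knockdown, against 10.80, 10.85 and 10.49 in control. The differences of the 5 genes lay between -1.89 and -1.64, and control 3 was the lowest control array for 4 of them, the exception being PCK2. With 2 groups of arrays, a distance over 6 points reflects mostly the difference between the groups.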

How the data were processed

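RNA of 3 SOX9 knockdown and 3 control samples was labelled with a 3' in vitro transcription kit and hybridised to expression arrays, as the labels' protocols state. The deposited values are log2 signals made with RMA and the affy package, per the submitters' processing notes; no source used here gives versions, array design or genome build. RMA equalises the distributions of the arrays and compresses low signals. Precision is limited by the small number of arrays.

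Of 49293 probe sets that are not controls, 46650 had 1 gene, by Entrez number in RefSeq (GRCh38.p14) or, for 205, by the table's symbol. Entrez numbers absent from that RefSeq table were dropped where another remained. Each of 18713 genes was represented by its probe set with the highest mean. The tests used lmFit and eBayes (two-sided, no covariate) of limma 3.58.1 under R 4.3.3, Benjamini-Hochberg adjustment over all genes (where stated, all probe sets) and a threshold of 0.05. The fit was also run on simulated data with independent noise and far fewer changed genes than were called here. That run checked the code and says little about the calls in these arrays. Python 3.11.15, pandas 2.3.3 and matplotlib 3.10.9 served tables and plots.

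The members and lists were chosen with earlier results of these data known. Named were all members, SOX9, up to 4 passing genes of each list with the largest difference and groups that did not overlap (or the 2 of smallest p where fewer than 2 passed), and 5 genes like CLDN7. A gene of the scaffold list that this rule names is not reported here. Alternatives were a signal filter, array medians subtracted, other variance models, array weights, replicate block, spike-in covariate, other representative probe sets, a minimum difference of 1 on the log2 scale and leaving out each array.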

Additional observations from a re-analysis of the deposited data

How the results depend on the processing

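The fall of CLDN7 and that of IGSF5 kept their direction and their call in every alternative run. Each has 1 probe set, so settings that changed the value table or the representative set reused the same values. The 2 member genes called lower became 1, CLDN7, with a difference of at least 1 on the log2 scale, with the replicate block and with the spike-in covariate, and were 1 to 2 on leaving out single arrays; member genes called higher were 0 to 1 there. The 3 member probe sets called lower became 1 in those 3 settings and 1 to 3 without single arrays. TJP1 differed by -0.39 with the replicate block (limma adjusted p = 0.0807), by -0.32 with the spike-in covariate and by -0.44 to -0.36 without single arrays. The replicate block also ended the calls of CXADR (0.0743), LSR (0.115), ELF3 (0.066) and ZEB1 (0.0922). The 3 other tight junction genes called higher became 5 with trend and robust variance and with array weights, 1 with the replicate block and with plain _at sets, 0 with the spike-in covariate or with the minimum difference, and 1 to 4 without single arrays. The 1 called lower became 2 when the most variable set, or the mean of sets, stood for a gene. Members that did not pass changed sign as follows. CLDN1 differed by 0.08 with the spike-in covariate, 0.23 by its most variable set and 0.09 with the mean of sets. CLDN12 differed by -0.28 and -0.07 in those last settings, and CLDN2 by -0.04 with the covariate. Without single arrays CLDN1 ran from -0.14 to 0.11, CLDN2 from 0.05 to 0.38, CLDN3 from -0.14 to 0.06 and CLDN6 from -0.04 to 0.14. CXADR differed by -0.36 by its most variable set and by -0.01 with the mean of sets. SOX9 differed by -0.81 by its most variable set (adjusted p = 0.0526) and with plain _at sets (0.0647). Genes called over the whole table, 1577 higher and 1565 lower, were 303 and 496 with the covariate, 413 and 422 with plain _at sets, 92 and 167 with the minimum difference, and 823 to 1972 and 952 to 1627 without single arrays. No member has a plain _at set, so that setting gives no value for members. The value table of the series matrix was identical to the normalized table. Same-numbered arrays did not deviate together (r = -0.240, -0.396 and -0.415 for replicates 1 to 3), and no array correlated best with its own number. These values gave no sign of pairing by number, but deviations from means of 3 arrays cannot exclude a shared source. The causes of these changes were not tested. Signals under 5 limit what can be seen for 5 of the 9 members.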

Other observations

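Adherens junctions and desmosomes join cells below the tight junction. Of 19 measured genes of both, 2 rose and 2 fell by limma (5 and 2 at an unadjusted p under 0.05), beside 8.43% and 8.36% of all genes (15.2% and 13.4% unadjusted), and their median difference was 0.03. NECTIN2, an adhesion protein of adherens junctions, read 7.75, 7.85 and 7.87 in knockdown, against 6.87, 6.75 and 6.82 in control, a difference of 1.01 (SE 0.09, adjusted p = 0.000164), and its second probe set rose by 0.56. NECTIN3 rose by 0.60 (adjusted p = 0.00446). The desmosomal cadherins DSC2 and DSG2 fell by 0.60 and 0.53. DSC2 read 7.61, 7.59 and 7.69 in knockdown, against 8.20, 8.36 and 8.15 in control, and DSG2 read 9.83, 9.85 and 9.99 in knockdown, against 10.41, 10.61 and 10.22 in control. The groups of all 4 did not overlap. The 3 probe sets of DSG2 all fell, by 0.47 to 0.78, while 1 of the 6 sets of DSC2, with a mean of 3.30, differed by 0.25. DSG2 lost its call without knockdown 1 (adjusted p = 0.0617). With the spike-in covariate the adjusted p was 0.0836 for NECTIN3, 0.0531 for DSC2 and 0.195 for DSG2.

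Among marker genes of other cell types, CD68, a lysosomal protein of macrophages, and DCN, a proteoglycan of fibroblasts, rose by 0.62 and 0.59 (limma adjusted p = 0.00822 and 0.00759). CD68 averaged 5.33 in knockdown and 4.71 in control, and DCN 5.14 in knockdown and 4.55 in control. PTPRC, which marks leukocytes, and LUM, which marks fibroblasts, lay below 3 on average in both groups. The mean of the 8 leukocyte markers ran from 3.83 to 4.05 in knockdown and from 3.67 to 3.90 in control, and that of the 8 fibroblast markers from 4.07 to 4.22 in knockdown and from 3.99 to 4.11 in control. Their part in the results was not tested.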
